A study of Homo sapiens with 9 samples.

Results

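Kinesins are motor proteins that walk along microtubules or shorten them, and their transcripts were followed here across 9 RNA-seq libraries of HepG2, a human liver cancer cell line. The genes were chosen by name, as every gene symbol made of KIF or KIFC, a number and at most a letter from A to C. This gave 41 of the 24204 symbols measured. By what each protein is known to do, 13 were set down as mitotic kinesins, 17 as transport kinesins and 11 as other kinesins (cilium, centriole, neurite and signalling proteins). No measured value decided which genes were members, but the family and its division were picked with the differences between control and knockdown cells already known. Counts and medians by class are therefore a description of these libraries, and no test was run between the classes.

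Every library came from HepG2 cells that had been infected with a lentivirus for 48 h and then kept in puromycin for 48 h. Control cells carried a control hairpin (shCtrl), and the other cells carried a hairpin against TRIB3, either shTRIB3-1 or shTRIB3-2, with 3 libraries in each of the 3 groups. TRIB3 encodes a pseudokinase that is induced by amino acid shortage, and the study asked which transcripts depend on it. All libraries represent selected, infected populations of a single cell line, with no rescue construct, and both knockdowns were compared with the same control libraries. The labels give high-glucose medium with serum, whereas the study's methods describe RNA taken after glutamine withdrawal, so the medium at harvest is uncertain. The sources do not say that the libraries of a group were separate cultures, so p-values measure the spread between these libraries, which may be technical.

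A mitotic kinesin is made mainly for cell division: such motors push spindle poles apart, move chromosomes, correct faulty attachments of chromosomes to the spindle, and build the midzone where the cell is later cut apart. Their transcripts are known to rise as cells approach mitosis and to be low in resting cells. Transport kinesins work in cells at any stage, where they carry vesicles, mitochondria, endosomes and the building blocks of cilia. Conventional kinesin is a pair of KIF5 heavy chains with light chains that hold cargo, and heterotrimeric kinesin-2 is made of KIF3A, KIF3B or KIF3C, and the adaptor KIFAP3.

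The hairpins are shown first because every difference below is a difference between cells that carried them. As target sense strands in the TRIB3 transcript, 5′ to 3′ and in lower case, they were:
shTRIB3-1: tggatgacaacttagataccg
shTRIB3-2: gccgtgctcttccgccagatg
Both lie in coding sequence on chromosome 20 (GRCh38, GENCODE v44 annotation): shTRIB3-1 at chr20:388072-388092 in exon 2 and shTRIB3-2 at chr20:391473-391493 in exon 3. Each matched the transcripts of 1 gene exactly, TRIB3. TRIB3 itself was at 67.9, 65.8 and 66.6 FPKM in the shCtrl libraries, 34.1, 32.7 and 34.0 FPKM in the shTRIB3-1 libraries, and 20.6, 20.7 and 20.4 FPKM in the shTRIB3-2 libraries. FPKM divides the fragments of a gene by its length and by library depth. The 3 groups did not overlap, and the shTRIB3-2 libraries held the least TRIB3 transcript. On the log2(FPKM + 0.1) scale, which all fold changes here use, TRIB3 fell by 0.99 with shTRIB3-1 and by 1.70 with shTRIB3-2.

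Libraries held 34206726 to 36311029 fragments. Replicates correlated at 0.996 to 0.997 across tested genes, and control and knockdown libraries at 0.921 to 0.935. Hepatocyte markers summed to 7170 to 7840 FPKM in shCtrl, 7770 to 8190 in shTRIB3-1 and 9720 to 9980 in shTRIB3-2. ALB made up most of this sum, and single markers went both ways: TTR was at 212 and 328% of the shCtrl mean, HNF4A at 85.1 and 95.3%. Of 7 markers of other cell types, only CD68 passed the filter, and PTPRC was at 0 in the shCtrl libraries. In the annotation other genes on the same strand cover 81.6% of the exon bases of CD68, so its value is uncertain. A gene was tested where at least 3 of the 9 libraries reached 1 FPKM, which kept 11265 genes, and it was called changed at an adjusted p under 0.05 with a log2 fold change beyond 1 in either direction. The p-values come from limma's moderated test over the whole table with Benjamini-Hochberg adjustment. Of the 41 kinesins, 30 passed the filter: 12 of 13 mitotic, 15 of 17 transport and 3 of 11 other kinesins.

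Upstream sequences of a few kinesins are printed because the classes differ in 2 short elements known from cell cycle genes. The cell cycle genes homology region, or CHR, with the letters TTTGAA, is read by the MuvB complexes that keep mitotic genes silent in resting cells and switch them on before mitosis. The CCAAT box is read by NF-Y and often lies just upstream of a CHR. The sequences are the 120 bases that end at the base before the annotated start of the gene (RefSeq, GRCh38.p14), 5′ to 3′ on the gene's strand, in lower case with each CHR (TTTGAA or its reverse TTCAAA) and each CCAAT box (CCAAT or its reverse ATTGG) in capitals. The first 4 are mitotic kinesins with both elements. KIF20A is the tested mitotic kinesin with the largest fold changes on the log2(FPKM + 0.1) scale and has no TTTGAA. KIF3C is a transport kinesin whose transcript rose.
KIF4A, chrX:70289984-70290103, plus strand: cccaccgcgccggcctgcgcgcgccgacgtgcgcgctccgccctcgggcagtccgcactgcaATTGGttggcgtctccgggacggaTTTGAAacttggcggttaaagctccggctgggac
KIF11, chr10:92593010-92593129, plus strand: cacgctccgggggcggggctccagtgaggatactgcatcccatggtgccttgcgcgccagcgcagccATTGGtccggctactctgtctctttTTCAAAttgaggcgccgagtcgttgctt
KIF18A, chr11:28108157-28108276, minus strand: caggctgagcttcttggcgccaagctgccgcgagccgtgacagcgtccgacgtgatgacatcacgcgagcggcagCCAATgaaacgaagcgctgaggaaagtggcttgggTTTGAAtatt
KIF23, chr15:69414229-69414348, plus strand: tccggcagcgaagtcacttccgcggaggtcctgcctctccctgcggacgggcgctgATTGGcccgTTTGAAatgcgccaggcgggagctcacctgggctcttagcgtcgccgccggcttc
KIF20A, chr5:138178992-138179111, plus strand: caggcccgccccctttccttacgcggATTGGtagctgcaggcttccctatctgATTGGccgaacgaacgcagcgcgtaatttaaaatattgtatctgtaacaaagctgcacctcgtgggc
KIF3C, chr2:25982498-25982617, minus strand: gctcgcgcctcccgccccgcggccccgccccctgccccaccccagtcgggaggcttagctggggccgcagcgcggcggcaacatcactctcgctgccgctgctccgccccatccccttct

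Mitotic kinesin transcripts were lower in both knockdowns, and lower with shTRIB3-2 than with shTRIB3-1. All 12 tested mitotic kinesins were called lower with shTRIB3-1, where 6.10% of all tested genes were, and all 12 were called lower with shTRIB3-2, where 6.27% of all tested genes were. Their levels came to 16.1 to 44.7% of the shCtrl mean with shTRIB3-1 and to 4.35 to 19.9% with shTRIB3-2. The median log2 fold change of the 12 was -2.03 with shTRIB3-1 and -3.51 with shTRIB3-2, against -0.056 and -0.035 over all tested genes. For each of the 12, every shCtrl library lay above every shTRIB3-1 library, and every shTRIB3-1 library above every shTRIB3-2 library, an order that 10.2% of all tested genes showed. KIF15 passed the filter through the shCtrl libraries alone, so it could only have been found lower. KIF18A and KIF18B reached 1 FPKM in 3 shCtrl libraries, 1 shTRIB3-1 library and 0 shTRIB3-2 libraries. They would not have passed without shCtrl, so with shTRIB3-2 they too could only have been found lower. KIF2A, which also acts at spindle poles, was set down among the other kinesins and was called lower in neither knockdown. In bulk RNA, fewer dividing cells and less mitotic transcript per dividing cell cannot be told apart.

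**Figure D1:**
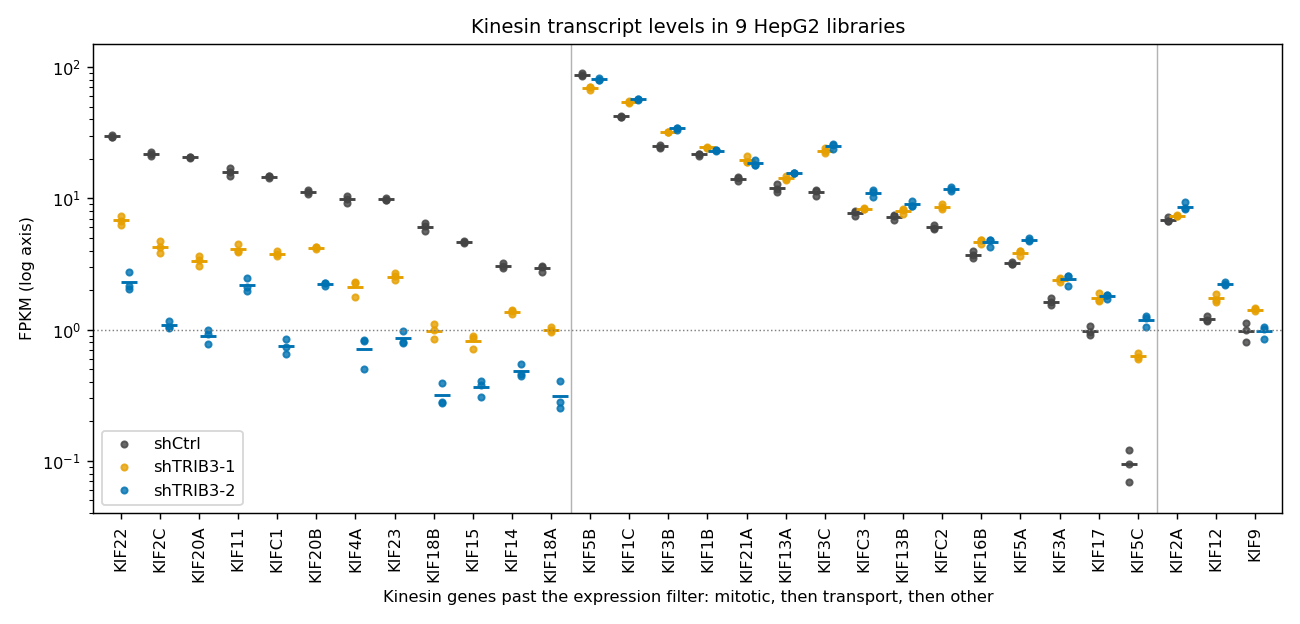
FPKM of the 30 kinesins past the filter in the 9 libraries, on a log axis, ordered within each class by the shCtrl mean. Each point is 1 library, short bars are group means of 3 libraries, and the dotted line marks 1 FPKM; for each of the 12 mitotic kinesins on the left the 3 groups are apart, with shTRIB3-2 lowest, while most transport kinesins lie slightly above shCtrl and KIF5B lies below it.

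Motors that pull the spindle into shape came first. KIF11, or Eg5, slides microtubules apart to make the spindle bipolar. It stood at 14.9, 17.0 and 16.0 FPKM in shCtrl, 3.87, 3.94 and 4.48 in shTRIB3-1, and 2.49, 1.97 and 2.11 in shTRIB3-2. Its log2 fold change was -1.94 with shTRIB3-1 and -2.81 with shTRIB3-2 (SE 0.088 each). KIF11 kept more of its transcript with shTRIB3-2 than 9 of the other tested mitotic kinesins, at 13.7% of the shCtrl mean. KIF15, a motor that can hold the spindle bipolar beside KIF11, stood at 4.58, 4.67 and 4.71 FPKM in shCtrl, 0.890, 0.713 and 0.865 in shTRIB3-1, and 0.407, 0.378 and 0.305 in shTRIB3-2. KIFC1, or HSET, moves toward microtubule minus ends and gathers spindle poles. It was at 14.4, 14.7 and 14.7 FPKM in shCtrl, 3.98, 3.62 and 3.78 in shTRIB3-1, and 0.656, 0.741 and 0.855 in shTRIB3-2. Of the mitotic kinesins, KIFC1 differed most between the hairpins, with a log2 fold change of -2.20 (SE 0.082) for shTRIB3-2 against shTRIB3-1. In the annotation 14% of its exon bases lie under a pseudogene on the opposite strand, and whether the counting used strand is not given in the sources used here.

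Kinesins that act on chromosomes and microtubule ends behaved alike in direction. KIF22, or Kid, pushes chromosome arms toward the spindle equator and was the mitotic kinesin with the highest level per length, at 30.6, 29.4 and 29.6 FPKM in shCtrl, 7.39, 6.28 and 6.75 in shTRIB3-1, and 2.77, 2.16 and 2.03 in shTRIB3-2. Ranked by FPKM among the 41 kinesins, it went from place 3 in shCtrl to place 12 in shTRIB3-1 and place 15 in shTRIB3-2. Annotated genes on the opposite strand cover 7.8% of the exon bases of KIF22 and 5.3% of those of KIF20A. KIF2C, or MCAK, takes microtubules apart at centromeres to correct wrong attachments. It stood at 21.8, 22.4 and 21.2 FPKM in shCtrl, 4.25, 3.81 and 4.71 in shTRIB3-1, and 1.17, 1.03 and 1.04 in shTRIB3-2. Its log2 fold change was -2.34 with shTRIB3-1 and -4.21 with shTRIB3-2 (SE 0.078 each). The chromokinesin KIF4A, which sets the length of the central spindle, was at 9.20, 10.4 and 9.94 FPKM in shCtrl, 2.30, 1.77 and 2.27 in shTRIB3-1, and 0.819, 0.498 and 0.838 in shTRIB3-2.

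The plus-end motors of the kinesin-8 family lay lower. KIF18A, which dampens the swings of chromosomes at metaphase, was at 2.77, 3.02 and 3.05 FPKM in shCtrl, 1.04, 0.952 and 0.986 in shTRIB3-1, and 0.253, 0.407 and 0.280 in shTRIB3-2. Only 36 to 59 fragments stood behind each shTRIB3-2 value of KIF18A, against 413 to 457 in shCtrl. KIF18B, which shortens astral microtubules, was at 6.46, 5.63 and 6.19 FPKM in shCtrl, 1.10, 0.843 and 0.995 in shTRIB3-1, and 0.393, 0.279 and 0.276 in shTRIB3-2. Its log2 fold change with shTRIB3-1 was -2.52 (SE 0.135).

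Motors of the midzone and of cytokinesis held both ends of the range. KIF20A, or MKLP2, carries the chromosomal passenger complex to the central spindle. On the log2(FPKM + 0.1) scale it had the largest fold changes of the 12 in both knockdowns, at -2.58 with shTRIB3-1 and -4.38 with shTRIB3-2 (SE 0.086 each). As a share of the shCtrl mean with shTRIB3-1 it was level with KIF18B, at 16.3% against 16.1%. Its 9 values were 20.4, 20.6 and 20.8 FPKM in shCtrl, 3.05, 3.40 and 3.64 in shTRIB3-1, and 0.992, 0.780 and 0.920 in shTRIB3-2. KIF23, or MKLP1, is the motor of centralspindlin and stood at 9.69, 10.0 and 9.76 FPKM in shCtrl, 2.55, 2.37 and 2.68 in shTRIB3-1, and 0.807, 0.785 and 0.983 in shTRIB3-2. The midbody motor KIF20B kept the largest share of its transcript with shTRIB3-2, at 19.9% of the shCtrl mean: it was at 10.8, 11.2 and 11.5 FPKM in shCtrl, 4.23, 4.29 and 4.11 in shTRIB3-1, and 2.26, 2.27 and 2.15 in shTRIB3-2. KIF14, which binds citron kinase and PRC1 in cytokinesis, had the smallest change with shTRIB3-1, a log2 fold change of -1.11 (SE 0.103), but not with shTRIB3-2, where it was -2.45. Its levels were 2.93, 3.05 and 3.21 FPKM in shCtrl, 1.32, 1.40 and 1.38 in shTRIB3-1, and 0.456, 0.444 and 0.544 in shTRIB3-2. KIF14 and KIF18A were no longer beyond the fold threshold with shTRIB3-1 when 1 in place of 0.1 was added before taking logs.

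The mitotic kinesin below the filter was KIF4B, an intronless near copy of KIF4A. It had 15 to 21 fragments in shCtrl, 1 to 3 with shTRIB3-1 and 0 to 4 with shTRIB3-2. Reads of KIF4A could be counted there. CENPE is a kinesin of the kinetochore that the naming rule leaves out. It moved the same way, from 4.22, 4.11 and 4.39 FPKM in shCtrl to 1.34, 1.66 and 1.56 in shTRIB3-1 and 0.774, 0.641 and 0.725 in shTRIB3-2, with log2 fold changes of -1.43 and -2.42 against shCtrl.

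**Figure D2:**
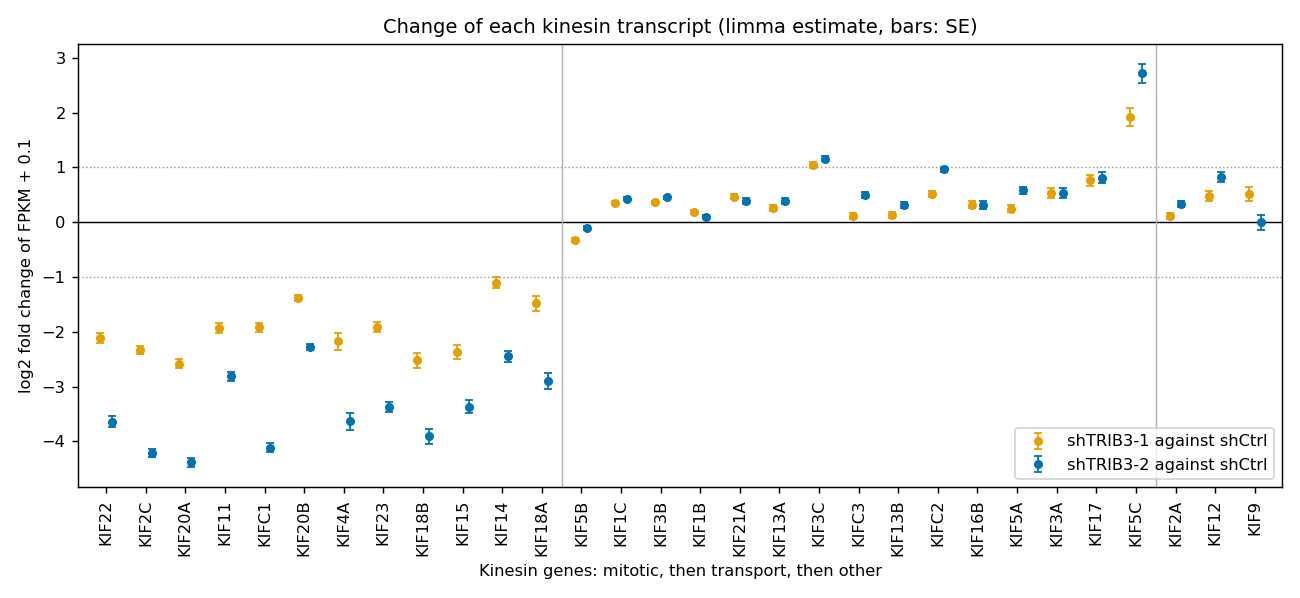
Log2 fold change of each tested kinesin against shCtrl on the log2(FPKM + 0.1) scale, for shTRIB3-1 and shTRIB3-2, with the standard error of the limma estimate as bars and dotted lines at -1 and 1. Mitotic kinesins lie between -1.11 and -4.38, and KIF3C and KIF5C are the 2 transport kinesins beyond 1 in both knockdowns.

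Between the hairpins, all 12 tested mitotic kinesins were lower with shTRIB3-2 at an adjusted p under 0.05 (limma), where 20.7% of all tested genes were. The median difference was -1.44 on the log2 scale, against 0.025 over all tested genes, and single differences ran from -0.88 (KIF11) to -2.20 (KIFC1). With the fold threshold, 9 of the 12 were called lower, where 1.79% of all tested genes were. KIF11, KIF20B and KIF15 were those that missed it, with differences of -0.88, -0.89 and -0.99. Adding 1 in place of 0.1 before taking logs left 4 of the 9 (KIF20A, KIF22, KIF2C and KIFC1). With shTRIB3-2, the means of 8 of the 12 were below 1 FPKM.

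Proliferation markers moved with the mitotic kinesins. All 10 were called lower in both knockdowns, where 6.10% and 6.27% of all tested genes were, with medians of -2.0 and -3.32, and their summed level was 559 to 564 FPKM in shCtrl, 149 to 151 in shTRIB3-1 and 90.0 to 91.1 in shTRIB3-2. CDK1, the kinase that starts mitosis, was at 26.8 to 31.6 FPKM in shCtrl and 2.29 to 2.70 in shTRIB3-2. CCNB1, its cyclin, had log2 fold changes of -1.99 and -3.34. MKI67, TOP2A, CCNA2, BUB1, PCNA, MCM2, MCM6 and RRM2 fell as well, PCNA the least with shTRIB3-2, at 25.7% of the shCtrl mean. The part of the share of dividing cells in the kinesin differences was not tested.

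Transcripts of the proteins that work with mitotic kinesins fell in both knockdowns. At an adjusted p under 0.05, 15 of 15 were lower, where 41.5% (shTRIB3-1) and 40.5% (shTRIB3-2) of all tested genes were. Of these, 13 were called lower with shTRIB3-1 and 14 with shTRIB3-2, against 6.10% and 6.27% of all tested genes. Their medians were -1.58 and -2.43. AURKB, the kinase of the chromosomal passenger complex that KIF20A carries, was at 15, 14.1 and 15.7 FPKM in shCtrl, 3.32, 2.75 and 2.66 in shTRIB3-1, and 0.529, 0.698 and 0.306 in shTRIB3-2, a log2 fold change of -4.67 with shTRIB3-2. The other members of that complex differed in extent: CDCA8 fell to 11.5%, INCENP to 17.6% and BIRC5 to 26.4% of the shCtrl mean with shTRIB3-2. PLK1, a mitotic kinase that binds KIF20A, fell to 20.8% of the shCtrl mean with shTRIB3-1 and 6.12% with shTRIB3-2. TPX2 and AURKA, which act with KIF11 at spindle poles, had log2 fold changes of -2.32 and -2.42 with shTRIB3-2. PRC1, the midzone bundler bound by KIF4A and KIF14, fell to 33.2 and 13.2%. In the annotation other genes on the same strand cover 57.6% of the exon bases of PRC1 and 86.8% of those of NUSAP1, so their values are uncertain. The kinase CIT, bound by KIF14, and the microtubule proteins GTSE1, PSRC1 and NUSAP1 had log2 fold changes between -1.55 and -2.0 with shTRIB3-1.

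Transcripts of proteins that work with KIF23 in the cleavage furrow were the 3 of this list that fell least with shTRIB3-1. RACGAP1, the partner of KIF23 in centralspindlin, was at 16.6, 16.2 and 16.8 FPKM in shCtrl, 8.0, 8.41 and 8.13 in shTRIB3-1, and 4.19, 4.14 and 4.31 in shTRIB3-2. ECT2, which centralspindlin recruits to start the cleavage furrow, was at 75% of the shCtrl mean with shTRIB3-1 and 50.8% with shTRIB3-2, and was called in neither knockdown. ANLN, a scaffold of the furrow, fell by 0.61 on the log2 scale with shTRIB3-1 and by 2.43 with shTRIB3-2.

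Transport kinesins moved the other way and by far smaller amounts. With shTRIB3-1, 13 of the 15 tested were higher at an adjusted p under 0.05, where 32.9% of all tested genes were, 1 was lower (41.5% of all tested genes) and 1 passed in neither direction. With shTRIB3-2, 14 were higher, where 35.4% of all tested genes were, and 1 was lower (40.5%). Their median log2 fold change was 0.36 with shTRIB3-1 and 0.45 with shTRIB3-2. Only KIF3C and KIF5C were called higher, in both knockdowns, where 5.39% of all tested genes were called higher with shTRIB3-1 and 6.06% with shTRIB3-2. Between the hairpins, 8 were higher with shTRIB3-2 at an adjusted p under 0.05 (25.1% of all tested genes), 1 was lower and 6 passed in neither direction. The 1 lower was KIF1B (adjusted p = 0.043, limma), and KIF13A was among the 8 (adjusted p = 0.0478, limma). Both missed 0.05 with a replicate block (adjusted p = 0.0552 and 0.052, limma) and in several other alternatives. None of the 15 was called, where 2.08% of all tested genes were called in either direction and 0.284% higher. In the order shCtrl lowest and shTRIB3-2 highest, 8 of the 15 had all 3 groups apart, an order that 11.0% of all tested genes showed. KIF5C is in this order and in each of the counts of higher genes. It passed the filter through the shTRIB3-2 libraries alone, so with shTRIB3-2 it could only have been found higher.

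The heavy chains of conventional kinesin moved in opposite directions. KIF5B, the heavy chain found in all cells, had the highest level of all kinesins in each group, at 85.1, 87.5 and 89.8 FPKM in shCtrl, 67.3, 71.0 and 70.5 in shTRIB3-1, and 79.7, 80.1 and 83.1 in shTRIB3-2. Of the 15 tested transport kinesins it alone fell, by 0.33 with shTRIB3-1 and by 0.11 with shTRIB3-2 on the log2 scale (SE 0.033, adjusted p = 1.87e-06 and 0.00865, limma), the latter being lost when the libraries were centred on their medians. The neuronal heavy chain KIF5A was at 3.19, 3.18 and 3.30 FPKM in shCtrl, 3.96, 3.97 and 3.62 in shTRIB3-1, and 4.83, 4.73 and 5.03 in shTRIB3-2, with no overlap between groups. KIF5C, also known from neurons, rose from a level near 0. Its values were 0.0940, 0.0686 and 0.122 FPKM in shCtrl, 0.623, 0.669 and 0.598 in shTRIB3-1, and 1.26, 1.04 and 1.23 in shTRIB3-2. These rest on 20 to 35, 167 to 184 and 291 to 346 fragments. The fitted log2 fold changes of KIF5C, 1.91 and 2.72, depend on the value added before taking logs, and KIF5C passed the filter through the shTRIB3-2 libraries alone. Even so it remained a minor form: per length, KIF5C came to 0.0145 ± 0.00139 of the KIF5B level with shTRIB3-2 and 0.00108 ± 0.000287 in shCtrl (SD, n = 3).

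Heterotrimeric kinesin-2 rose in each of its parts. KIF3B was at 25.6, 24.8 and 24.3 FPKM in shCtrl, 32.2, 32.0 and 31.8 in shTRIB3-1, and 34.6, 34.2 and 33.3 in shTRIB3-2. KIF3A, which pairs with KIF3B or KIF3C, was at 1.73, 1.63 and 1.53 FPKM in shCtrl, 2.44, 2.29 and 2.46 in shTRIB3-1, and 2.55, 2.15 and 2.54 in shTRIB3-2. The knockdown values of KIF3A overlapped each other and lay above shCtrl. KIF3C was at 11.5, 11.4 and 10.5 FPKM in shCtrl, 24.1, 22.3 and 22.9 in shTRIB3-1, and 25.5, 23.7 and 25.9 in shTRIB3-2, log2 fold changes of 1.04 and 1.16 (SE 0.049 each). Its change with shTRIB3-1 was close to the threshold and was 0.99 after scaling to TPM. Per length, KIF3C went from 0.448 ± 0.0133 of the KIF3B level in shCtrl to 0.721 ± 0.0264 with shTRIB3-1 and 0.735 ± 0.0418 with shTRIB3-2 (SD, n = 3). KIFAP3, the cargo adaptor of kinesin-2, is named after its values were seen: it was at 3.75, 3.70 and 3.35 FPKM in shCtrl, 7.99, 8.16 and 7.88 in shTRIB3-1, and 6.84, 7.12 and 7.14 in shTRIB3-2. KIF17, a homodimeric kinesin-2 of cilia and dendrites, rose by less than the threshold, with log2 fold changes of 0.77 and 0.81.

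**Figure D3:**
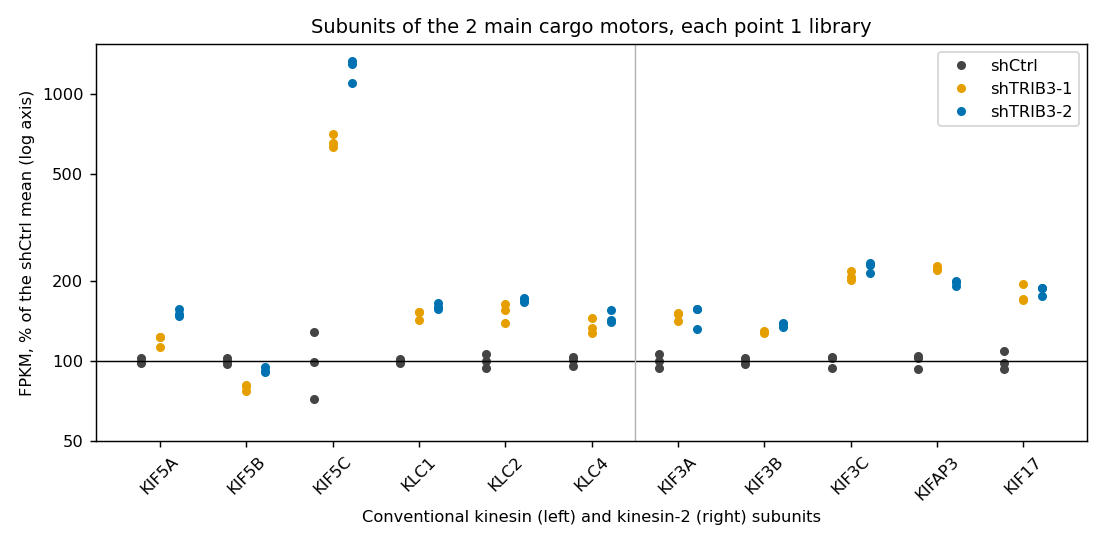
FPKM of conventional kinesin subunits (KIF5 heavy chains and KLC light chains, left) and kinesin-2 subunits (right) as a percentage of the shCtrl mean, on a log axis, with each point 1 library. KIF5B lies below 100% in the knockdown libraries, KIF5C lies at 664% (shTRIB3-1) and 1240% (shTRIB3-2) of the shCtrl mean on average, and KIF3C and KIFAP3 lie near 200%.

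Kinesin-3 motors, which carry vesicles and endosomes, rose by small amounts. KIF1C, a fast carrier of vesicles and mRNA, held place 2 among kinesins in each group, at 42.7, 42.0 and 42.0 FPKM in shCtrl, 53.9, 53.4 and 55.1 in shTRIB3-1, and 56.9, 57.6 and 56.1 in shTRIB3-2. KIF1B, a carrier of mitochondria and vesicles, had log2 fold changes of 0.18 and 0.10. KIF13A and KIF16B, which carry endosomal cargo, rose by 0.26 and 0.32 with shTRIB3-1 and by 0.39 and 0.31 with shTRIB3-2. KIF13B rose by 0.31 with shTRIB3-2, and its 0.13 with shTRIB3-1 was barely past the threshold (adjusted p = 0.0409, limma). KIF21A is not a kinesin-3 but a kinesin-4, and was set down as a transport kinesin. It limits microtubule growth at the cell cortex and rose by 0.46 and 0.39.

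The kinesin-14 motors outside mitosis were higher with shTRIB3-2 than with shTRIB3-1. KIFC2 was at 6.32, 5.82 and 5.91 FPKM in shCtrl, 8.57, 8.25 and 8.98 in shTRIB3-1, and 11.7, 11.4 and 12.3 in shTRIB3-2. With a log2 fold change of 0.96 it stayed under the threshold with shTRIB3-2, and it was called with centred, quantile-normalized or voom-weighted values. In the annotation 17.8% of its exon bases lie under FOXH1 on the opposite strand. KIFC3, a motor of epithelial junctions, was at 7.30, 7.87 and 8.03 FPKM in shCtrl, 8.31, 8.41 and 8.27 in shTRIB3-1 (adjusted p = 0.0830, limma), and 11.5, 10.3 and 11.1 in shTRIB3-2, a rise of 0.50 with shTRIB3-2.

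Transcripts of the light chains, adaptors and cargo linkers of transport kinesins were also higher. Of 15 tested, 15 were higher with shTRIB3-1 at an adjusted p under 0.05, with a median of 0.42, and 13 with shTRIB3-2, with a median of 0.54, where 32.9% and 35.4% of all tested genes were higher. In each knockdown 1 of the 15 was called higher, where 5.39% (shTRIB3-1) and 6.06% (shTRIB3-2) of all tested genes were. None was called in both knockdowns. KIFAP3 was called with shTRIB3-1 alone (1.13, against 0.95 with shTRIB3-2). MAPK8IP2, a scaffold for kinesin cargo, was called with shTRIB3-2 alone (1.43, against 0.98 with shTRIB3-1). SPAG9, the scaffold JIP4, was at 19.1, 19.4 and 18.6 FPKM in shCtrl, 31.2, 33.1 and 32.9 in shTRIB3-1, and 36.2, 36.4 and 37.5 in shTRIB3-2, log2 fold changes of 0.76 and 0.95. The light chains KLC1, KLC2 and KLC4, named after their values were seen, had log2 fold changes of 0.43 to 0.60 with shTRIB3-1 and 0.54 to 0.76 with shTRIB3-2. Annotated genes on the opposite strand cover 30.3% of the exon bases of KLC1, and those on the same strand 10.3%.

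Members of cytoplasmic dynein and dynactin, the motor for the opposite direction and its cofactor, went both ways. Of 22 tested subunits and regulators, 10 were higher, 6 lower and 6 neither with shTRIB3-1 at an adjusted p under 0.05, and 11, 5 and 6 with shTRIB3-2. Over all tested genes, 32.9% were higher and 41.5% lower with shTRIB3-1, and 35.4% and 40.5% with shTRIB3-2. With shTRIB3-1, 1 was called higher (5.39% of all tested genes) and 1 lower (6.10%). With shTRIB3-2, 2 were called higher (6.06%) and 0 lower (6.27%). DYNLT1, a light chain, was the only member called in both knockdowns. It was at 90.8, 84.0 and 82.9 FPKM in shCtrl, 186, 189 and 186 in shTRIB3-1, and 208, 222 and 208 in shTRIB3-2. Of the most abundant others, DYNLRB1 had log2 fold changes of 0.55 and 0.69, and DYNLL1 of 0.10 and 0.13. Of those that were lower, ACTR1B, a dynactin subunit, had log2 fold changes of -1.09 and -0.93, and the dynein regulator PAFAH1B1 of -0.61 and -0.32, both named after their values were seen. In the annotation 26.1% of the exon bases of DYNLRB1 lie under another gene on the same strand.

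None of the 3 tested kinesins of neither class was called, where 11.5% (shTRIB3-1) and 12.3% (shTRIB3-2) of all tested genes were called in either direction. KIF12 rose the most of the 3 with shTRIB3-2. KIF2A, a depolymerase of spindle poles and neurites and a close relative of KIF2C, was at 6.70, 6.76 and 7.16 FPKM in shCtrl, 7.35, 7.40 and 7.44 in shTRIB3-1, and 8.28, 8.42 and 9.32 in shTRIB3-2. Its 0.33 rise with shTRIB3-2 passed the threshold, and its 0.11 with shTRIB3-1 did not (adjusted p = 0.0923, limma). Since KIF2A also acts at spindle poles, counting it as mitotic would give 12 of 13 tested mitotic kinesins called lower in each knockdown. Annotated genes on the opposite strand cover 18.7% of the exon bases of KIF2A and 17.8% of those of KIF9. KIF12, a motor of epithelia whose loss causes cholestatic liver disease, was at 1.27, 1.16 and 1.19 FPKM in shCtrl, 1.88, 1.63 and 1.68 in shTRIB3-1, and 2.29, 2.21 and 2.17 in shTRIB3-2, with all groups apart and log2 fold changes of 0.48 and 0.83. KIF9, of motile cilia, rose by 0.51 with shTRIB3-1, and was at 0.978 ± 0.162 FPKM in shCtrl and 0.970 ± 0.103 FPKM with shTRIB3-2 (SD, n = 3).

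The kinesins below the filter were given no test in the main table. KIF24 is a centriolar depolymerase that holds back cilium assembly, and its fragments numbered 163 to 199 in shCtrl, 41 to 49 in shTRIB3-1 and 16 to 22 in shTRIB3-2. Its levels were 0.593, 0.549 and 0.485 FPKM in shCtrl, 0.128, 0.137 and 0.150 in shTRIB3-1, and 0.0561, 0.0674 and 0.0486 in shTRIB3-2, with no overlap. The cilium proteins KIF7 and KIF27 had 88 to 145 and 75 to 160 fragments over all 9 libraries. The neuronal transport motor KIF1A had 3 to 9 fragments in shCtrl, 26 to 37 with shTRIB3-1 and 16 to 24 with shTRIB3-2. KIF21B had 18 to 25, 37 to 40 and 5 to 7. KIF26B, KIF6, KIF26A, KIF19 and KIF25 never exceeded 11 fragments in a library.

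Summed over the family, the pool of kinesin transcripts changed its make-up. In shCtrl the mitotic kinesins held 149, 152 and 151 FPKM of the summed kinesin level, against 36.0, 33.4 and 36.7 in shTRIB3-1 and 13.5, 11.7 and 12.4 in shTRIB3-2. Transport kinesins held 244 ± 0.337 FPKM in shCtrl, 275 ± 1.67 with shTRIB3-1 and 301 ± 4.34 with shTRIB3-2 (SD, n = 3). The mitotic share thus went from 37.1% ± 0.288 to 11% ± 0.504 and 3.84% ± 0.238. The total of 405 FPKM in shCtrl came to 323 with shTRIB3-1 and 326 with shTRIB3-2, so the total differed little between the knockdowns while the mitotic share differed.

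**Figure D4:**
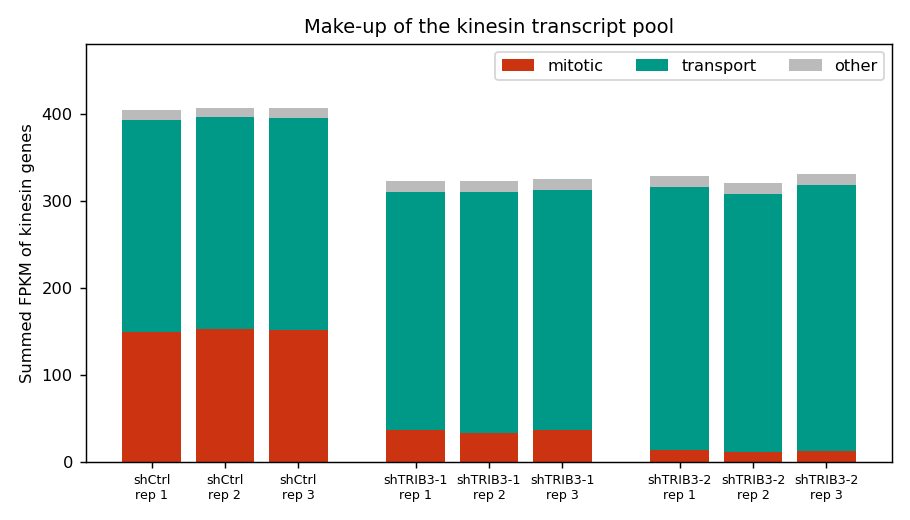
Summed FPKM of the 41 kinesins in each of the 9 libraries, stacked by class from 0. The mitotic part shrinks from 149 to 152 FPKM in shCtrl to 33.4 to 36.7 in shTRIB3-1 and 11.7 to 13.5 in shTRIB3-2, while the transport part grows from 244 to 301 FPKM on average.

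The rule had not used sequence, and in promoter sequence the classes differed in the elements named above. Windows of 250 bases before to 50 bases after the start were found for 33 of the 41 kinesins (RefSeq, GRCh38.p14), at 1 annotated start a gene, and were searched on both strands. A CHR (TTTGAA) was in 10 of 13 mitotic kinesin windows (76.9%), in 1 of 12 transport kinesin windows (8.33%) and in 0 of 8 others, against 15.4% of all 27305 windows and 9.56% of the 9088 windows of tested genes. A CCAAT box was in 11 of 13 mitotic (84.6%) and 3 of 12 transport windows (25%), against 37.0% of windows of tested genes. Both stood in 9 of 13 mitotic windows (69.2%), where 4.07% of windows of tested genes held both. KIF4B is a near copy of KIF4A, so the pair is not independent. Without KIF4B the mitotic windows with a CHR were 9 of 12.

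Positions here are those of the middle of an element, and spacings run from middle to middle, so they include bases of the elements. In the mitotic windows the CHR lay close to the start, from 52 bases before it (KIF23) to 33 after it (the second of 2 in KIF20B). In KIF4A and KIF4B the CHR lay 25 bases downstream of the CCAAT box, in KIF11 26, in KIF14 24, in KIF18B 35 and in KIF18A 36. KIF23 had a spacing of 10 bases, KIFC1 of 51 and KIF20B of 123. In the transport kinesin KIF5B the CHR lay 137 bases before the start and upstream of the CCAAT box, not downstream of it. The mitotic kinesins with no TTTGAA on either strand of the window were KIF2C, KIF20A and KIF22. Other forms of a CHR were not searched for. These kinesins were among the members with the largest falls: -4.21, -4.38 and -3.64 with shTRIB3-2.

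Other motifs did not part the classes in the same way. An E2F element (the letters TTCCCGC, or instead TTGGCGC, or otherwise TTCGCGC, or lastly TTGCCGC) was in 4 of 13 mitotic and 4 of 12 transport windows, against 21.2% of windows of tested genes. A run motif of the kind that can fold into G4-DNA, 4 runs of at least 3 G with 1 to 7 bases between them, was counted because the study concerns G4-DNA, and its letters can overlap those of an E2F element. It was in 2 of 13 mitotic windows (15.4%) and 6 of 12 transport windows (50%), against 33.7% of windows of tested genes. A match of letters is a description of the sequence and shows neither binding nor folding.

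**Figure D5:**
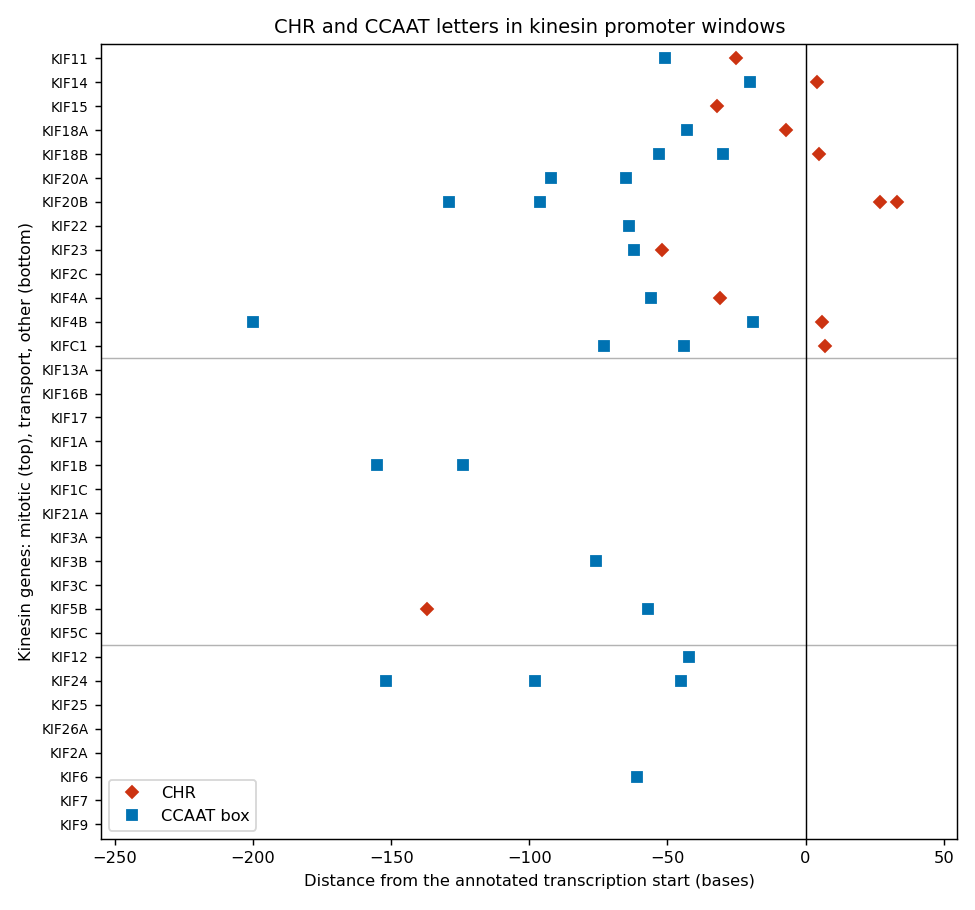
Positions of CHR (diamonds) and CCAAT letters (squares) in the windows of 33 kinesins, as distance in bases from the annotated transcription start (vertical line), with mitotic kinesins at the top, transport kinesins in the middle and others at the bottom. In 8 of the 9 mitotic windows with both, a CCAAT box lies 10 to 51 bases upstream of the CHR, counted from middle to middle.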

How the data were processed

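Total RNA of 9 HepG2 libraries was sequenced. The authors deposited FPKM values for each symbol in each library. Per the study's methods, reads were aligned with STAR, and per the submitters' processing notes the build was GRCh38 and HTSeq and R 3.2.0 were used; the annotation release and the use of strand in counting are not given in the sources used here. FPKM does not correct for a change in the composition of a library. Fragment numbers were recovered from the FPKM values, of which 99.99% came out within 0.02 of a whole number, and fragments without molecular identifiers give counting error only as a lower limit.

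Values were taken as log2(FPKM + 0.1) and fitted with 3 group means over all 9 libraries in limma 3.58.1 (R 4.3.3, empirical Bayes with a mean-variance trend, two-sided, Benjamini-Hochberg over 11265 genes with at least 1 FPKM in at least 3 libraries). The low-value scale understates changes of weakly expressed genes. The fit was tested on simulated data. Members, classes, partner lists and motifs were chosen with earlier results of these data known. All kinesins past the filter were described. Of the partner lists, genes called in both knockdowns and up to 2 others of the highest mean level were named, with exceptions stated, and an item that falls under this rule is not reported here. Alternatives changed the added value, filter, scaling, model, libraries and the class of KIF2A. The labels give no batch.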

Additional observations from a re-analysis of the deposited data

Results flagged for a closer look

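The effect of the hairpins on 9 mitotic kinesins differed between them, by the test of shTRIB3-2 against shTRIB3-1 itself (limma, adjusted p under 0.05 and a log2 difference beyond 1). The differences were -2.20 for KIFC1, -1.88 for KIF2C, -1.80 for KIF20A, -1.52 for KIF22, -1.46 for KIF23, -1.46 for KIF4A, -1.42 for KIF18A, -1.38 for KIF18B and -1.34 for KIF14, each with all 3 shTRIB3-2 libraries below all 3 shTRIB3-1 libraries. Over all tested genes, 1.79% were called lower in this comparison. TRIB3 also differed between the hairpins, by -0.71 (20.5 ± 0.171 against 33.6 ± 0.760 FPKM, SD, n = 3), and the part of the depth of knockdown in these differences was not tested.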

How the results depend on the processing

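Calls among the 30 tested kinesins numbered 14 with shTRIB3-1, 14 with shTRIB3-2 and 9 between the hairpins. Over all tested genes, 11.5%, 12.3% and 2.08% were called in either direction. The kinesin calls numbered 10 to 15, 10 to 15 and 4 to 11 across all alternatives. They numbered 13 to 14, 13 to 14 and 9 to 10 when 1 library was left out. With 1 added before taking logs, 4 were called between the hairpins. Leaving out a shCtrl library took KIF15 below the filter, and leaving out a shTRIB3-2 library took KIF5C below it. A filter of 5 FPKM left 20 kinesins tested. Of the kinesins called against shCtrl, it removed KIF14, KIF15, KIF18A and KIF5C. KIF3C with shTRIB3-1 was 0.99 with 1 added or in TPM, and KIF5C with shTRIB3-1 ran from 0.57 (1 added) to 2.80 (voom on fragments). In TPM the median of all genes with shTRIB3-1 was -0.111.

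The mitotic median of -2.03 with shTRIB3-1 was -1.72 with 1 added, -1.94 over all genes, -2.12 at 5 FPKM, -1.95 centred and -2.07 to -1.92 leaving out 1 library. That of -3.51 with shTRIB3-2 was -2.49 with 1 added, -3.67 with 0.01 added, -3.38 over all genes, -3.64 at 5 FPKM, -3.64 in TPM, -3.66 with voom and -3.63 to -3.41 leaving out 1 library. That of -1.44 between the hairpins was -0.78, -1.57 and -1.59 with 1 added, 0.01 added and voom, and -1.49 to -1.36 leaving out 1 library. The transport median of 0.36 with shTRIB3-1 was 0.35 with 1 added, 0.36 over all genes, 0.31 at 5 FPKM, 0.44 centred, 0.30 in TPM, 0.39 quantile-normalized, 0.41 with voom and 0.34 to 0.36 leaving out 1 library. That of 0.45 with shTRIB3-2 was 0.41 at 5 FPKM, 0.50 centred and 0.43 to 0.46 leaving out 1 library, and that of 0.12 between the hairpins was 0.09 over all genes, 0.09 centred, 0.15 in TPM and 0.09 to 0.12 leaving out 1 library. Directions of the class medians held in all of these, and the cause of the shifts was not tested.

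Reversals met 3 values near 0: KIF9 with shTRIB3-2 (0.05 centred, 0.07 quantile-normalized, 0.03 with voom, -0.12 to 0.10 leaving out 1 library, 0.01, 0.10 and 0.08 where positive), KIF16B between the hairpins (0.02 in TPM, -0.04 to 0.05 leaving out 1 library, 0.01 and 0.05 where positive) and KIF3A between the hairpins (-0.02 centred, -0.01 with voom, -0.03 to 0.08 leaving out 1 library, -0.02 and -0.03 where negative). KIF5B with shTRIB3-2 was -0.06 centred (adjusted p = 0.151, limma) and KIF13B with shTRIB3-1 was 0.08 in TPM (adjusted p = 0.252, limma). A replicate block left 14, 14 and 9 calls. Whether the replicate numbers pair the samples is not known. Same-numbered libraries deviated together at correlations of -0.074 to 0.093, and differently numbered ones at -0.076 to 0.048. Between the hairpins, and between shCtrl and shTRIB3-1, every same-numbered correlation was above every differently numbered one. Between shCtrl and shTRIB3-2 this was not so. Counting error limits KIF5C in shCtrl, at 20 to 35 fragments a library, and KIF18A, KIF18B and KIF15 with shTRIB3-2, at 36 to 74.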

Other observations

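Some pairs of proteins that act together stood in other proportions in the knockdown libraries. The pairs were chosen after their values were seen, and the ratios are of FPKM values, per length, with no test. RACGAP1 to KIF23, the parts of centralspindlin, stood at 1.71, 1.62 and 1.72 in shCtrl, 3.13, 3.55 and 3.04 in shTRIB3-1, and 5.19, 5.27 and 4.38 in shTRIB3-2, without overlap between groups. KIF15 to KIF11, the motors that hold the spindle bipolar, stood at 0.308, 0.274 and 0.294 in shCtrl, 0.230, 0.181 and 0.193 in shTRIB3-1, and 0.163, 0.192 and 0.145 in shTRIB3-2, where the knockdown groups overlapped. Against the proliferation marker MKI67, KIF20A went from 0.757 ± 0.0456 in shCtrl to 0.497 ± 0.0443 in shTRIB3-1 and 0.279 ± 0.0230 in shTRIB3-2 (SD, n = 3), without overlap between groups. KIF18A to MKI67 was at 0.108 ± 0.0110, 0.147 ± 0.00915 and 0.0985 ± 0.0301 in the same order.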
